A study of Homo sapiens with 4 samples.

Results

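The genes of iron storage, iron transport and haem breakdown described here are 10 genes measured in BLaER1, a human B cell leukaemia line engineered with an oestrogen-inducible fusion of C/EBPα and the oestrogen receptor. They are FTH1 (ENSG00000167996), FTL (ENSG00000087086), HMOX1 (ENSG00000100292), BLVRB (ENSG00000090013), SLC40A1 (ENSG00000138449), SLC11A1 (ENSG00000018280), SLC48A1 (ENSG00000211584), CD163 (ENSG00000177575), TFRC (ENSG00000072274) and NCOA4 (ENSG00000266412). Each symbol matched 1 row, so the set holds 10 of the 58302 gene rows of the deposited table, and all 10 are protein-coding. The genes were chosen by their role and on earlier results of this same comparison of differentiated with undifferentiated cells, using all 4 libraries. Their differences between the stages are therefore given as a description, without a test.

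Total RNA was sequenced in 2 libraries of undifferentiated BLaER1 cells and 2 libraries of differentiated BLaER1 cells. The differentiated cells had been kept for 5 to 6 days with IL-3, M-CSF (CSF-1) and 100 nM β-estradiol. The labels give 10 ng/ml before IL-3 and do not make clear if it applies to M-CSF too. All libraries come from this single line with the introduced fusion, grown in medium with serum. The values are TPM, an abundance scaled for gene length that keeps no sequencing depth, so read depth cannot be given for any value. The labels do not tell if both libraries of a stage were separate cultures, so p-values cover no more than the spread among these 4 libraries, possibly a technical one.

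Cells store iron inside shells of ferritin, which are built from the heavy chain FTH1 and the light chain FTL. NCOA4 carries ferritin to the lysosome when the iron is needed, TFRC takes up iron bound to transferrin, and SLC40A1 (ferroportin) is the exporter of iron from cells. Macrophages also take in haemoglobin and red cells. CD163 binds the haemoglobin-haptoglobin complex, SLC48A1 moves haem out of the phagolysosome, and HMOX1 opens the haem ring and releases its iron. BLVRB reduces biliverdin IXβ. SLC11A1 exports metal ions from the phagosome.

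Several of these transcripts are known to carry an iron-responsive element, a hairpin that binds iron regulatory proteins. In the 5′ UTR of ferritin and ferroportin the bound hairpin blocks translation, and in the 3′ UTR of TFRC it stabilizes the transcript. The hairpins are shown because elements of this kind are known from ferritin, ferroportin and TFRC transcripts. Control through them was not tested here. They were sought in GENCODE release 29 transcripts (GRCh38) as a C, a stem of 5 bases, the loop CAGTGN and 5 bases that pair with the stem, with G-U pairs allowed. FTH1 and HMOX1 were among the protein-coding genes searched, but their own matches were not recorded and are not given here. Of the other 8 genes, 3 held such a hairpin. Of all 19684 protein-coding genes searched, 1.48% (291) held one. Since several of these transcripts were already known to carry the element, nothing is read from this count. A match describes letters and does not show a working element. In the sites below the unpaired C and the loop are in capitals, and 6 bases are shown on each side of the hairpin.
FTL: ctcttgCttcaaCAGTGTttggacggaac
SLC40A1: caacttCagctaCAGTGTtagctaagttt
TFRC site a: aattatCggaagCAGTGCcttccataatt
TFRC site b: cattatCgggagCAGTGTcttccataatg
TFRC site c: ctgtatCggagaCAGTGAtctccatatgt
TFRC site d: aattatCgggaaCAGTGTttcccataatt

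The FTL hairpin lies at chr19:48965341-48965357 on the plus strand, in the 5′ UTR. The SLC40A1 hairpin lies at chr2:189580667-189580683 on the minus strand, also in the 5′ UTR. TFRC held 4 hairpins on the minus strand of chromosome 3, all in the 3′ UTR. In the order of transcription they lie at chr3:196050985-196051001, chr3:196050581-196050597, chr3:196050516-196050532 and chr3:196050469-196050485. BLVRB, SLC11A1, SLC48A1, CD163 and NCOA4 held none by this rule.

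Summed B lineage markers were higher in undifferentiated cells and summed macrophage markers were higher in differentiated cells. The 8 B lineage markers, among them DNTT and CD24, summed to 493 and 310 TPM in the undifferentiated libraries and to 10.4 and 14.0 TPM in the differentiated libraries. The 8 macrophage markers, among them CD68 and LYZ, summed to 757 and 843 TPM after differentiation and to 7.96 and 6.22 TPM before it. The 10 erythroid markers, which include the globins, summed to at most 0.82 TPM in any library, and 5 of them were listed at 0 in all 4. The 6 T cell markers summed to at most 0.97 TPM. The 5 platelet markers summed to 22.6 and 23.8 TPM after differentiation, nearly all of it PPBP (22.6 and 23.7 TPM), while PF4 was listed at 0 and 0.14 TPM and GP1BA at 0. The 5 hepatocyte markers summed to 37.2 and 46.2 TPM, nearly all of it SERPINA1, and ALB was listed at 0 in both differentiated libraries. The part of PPBP- or SERPINA1-expressing cells in the values below was not tested. In RNA from whole cultures, fewer cells of a type and less RNA per cell cannot be told apart.

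Protein-coding genes made up 12.2% and 13.5% of the summed TPM in differentiated and 23% and 15.6% in undifferentiated libraries. The share taken by other gene types thus differed between libraries, and TPM of every gene depends on it. For this reason values are also given as a share of protein-coding TPM and as ratios within a library where results turn on them.

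Of the 10 genes, 9 were higher in differentiated cells and 1, TFRC, was lower, and for all 10 the 2 stages did not overlap in any library. Among all 10180 genes tested, 70% had stages that did not overlap. Since the genes were chosen with this comparison known, nothing is read from this count. The 10 genes had a median log2 difference of 2.52, and over all tested genes it was -0.14. All log2 differences are differentiated minus undifferentiated of log2(TPM + 1), and this pseudocount shrinks the difference of weakly expressed genes. All 10 genes passed the filter of at least 1 TPM in at least 2 libraries. HMOX1, SLC40A1, SLC11A1, SLC48A1 and CD163 passed it through the differentiated libraries alone.

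**Figure D1:**
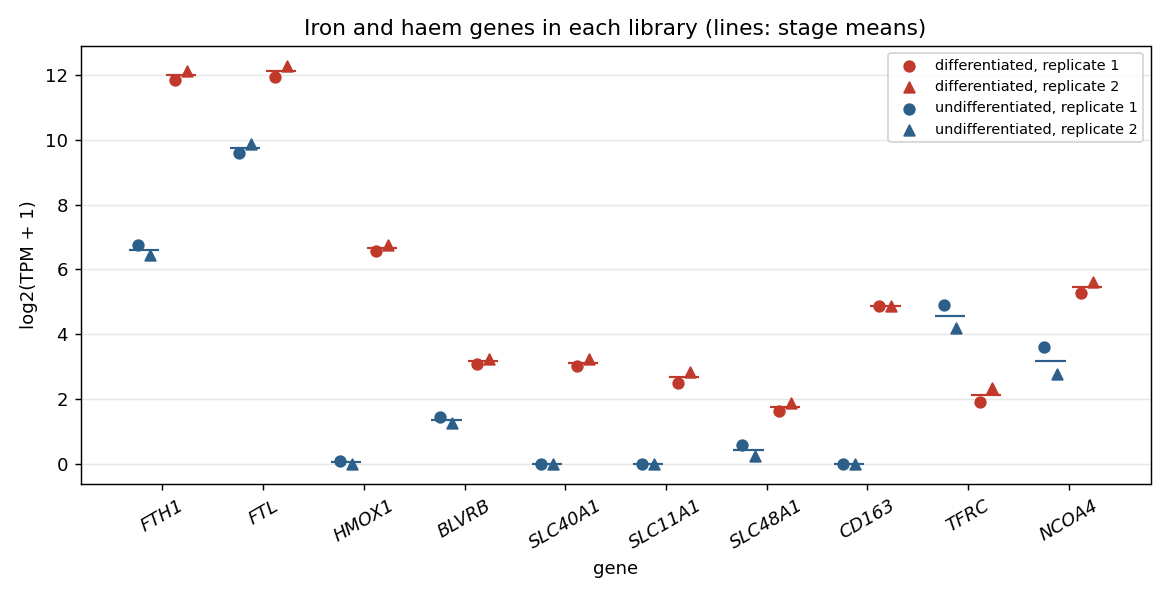
Each point is a library, with log2(TPM + 1) on the vertical axis and the 10 genes on the horizontal axis. Red marks differentiated and blue undifferentiated cells, circles replicate 1, triangles replicate 2, and lines the stage means. FTH1 and FTL lie close together near the top in differentiated cells and far apart in undifferentiated cells, and TFRC is the only gene with blue points above red.

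The ferritin chains were the most abundant of the 10 genes in every library, and the heavy chain differed more between the stages than the light chain. FTH1, whose chain carries the ferroxidase centre that oxidizes iron for storage, was listed at 3672 TPM and 4449 TPM in differentiated cells, against 106 and 86.9 TPM in the undifferentiated ones. These values average 4061 ± 550 and 96.5 ± 13.6 TPM (SD, n = 2), a 42.1-fold ratio of means and a log2 difference of 5.38. Both differentiated libraries were far above both undifferentiated libraries. FTL, whose chain supports mineral formation in the core, was listed at 3911 TPM and 4965 TPM in the differentiated libraries, with 771 and 938 TPM in the undifferentiated libraries. The averages were 4438 ± 745 and 855 ± 118 TPM (SD, n = 2), a 5.19-fold ratio of means and a log2 difference of 2.37. FTL was thus already abundant in the undifferentiated cells.

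By rank among protein-coding genes, FTL was 2nd and FTH1 3rd in both differentiated libraries. Before differentiation FTL ranked 32 and 20, and FTH1 ranked 234 and 224. Together the ferritin chains made up 6.22% and 6.98% of protein-coding TPM in differentiated cells and 0.381% and 0.657% in undifferentiated cells. FTH1 alone made up 3.01% and 3.30% after and 0.0461% and 0.0557% before differentiation. FTL made up 3.21% and 3.68% after and 0.335% and 0.601% before it. On this scale, too, the stages did not overlap for either chain.

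The balance of the chains differed between the stages. A ratio of 2 genes in the same library does not depend on how that library was scaled. FTH1 stood at 0.939 and 0.896 times FTL in the differentiated libraries and at 0.138 and 0.0927 times FTL in the undifferentiated libraries. The log2 ratio was -0.09 and -0.16 after differentiation and -2.86 and -3.43 before it, a difference of 3.02. With a library left out in turn this difference ran from 2.74 to 3.31. FTL was above FTH1 in every library, but the ranges of the chains overlapped in differentiated cells.

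FTH1 and FTL have many processed pseudogenes, near-copies of their messages, among which reads cannot be assigned with certainty. The table holds 25 rows named as FTH1 pseudogenes and 14 named as FTL pseudogenes. The FTH1 pseudogenes summed to 191 and 213 TPM in differentiated and 6.28 and 3.37 TPM in undifferentiated libraries. That is 4.93% and 4.57% of the joint sum with FTH1 after differentiation and 5.59% and 3.73% before it. The most abundant was FTH1P7 at 74.2 and 76.2 TPM in differentiated cells, against 3.48 and 2.07 TPM in undifferentiated cells. FTH1P10 was listed at 23.7 TPM and 36.7 TPM in the differentiated libraries, with 0.89 and 0.27 TPM in the undifferentiated libraries, and FTH1P23 at 17.02 and 29.3 TPM against 0 and 0.42 TPM. The FTL pseudogenes summed to at most 8.16 TPM in any library. Summed with their pseudogenes, FTH1 and FTL had log2 differences of 5.38 and 2.37.

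NCOA4, the cargo receptor for ferritin, was listed at 37.9 and 48.1 TPM in differentiated cells, against 11.2 and 5.89 TPM in undifferentiated cells. The means were 43.0 ± 7.26 and 8.52 ± 3.72 TPM (SD, n = 2), a log2 difference of 2.26. Of the undifferentiated libraries, replicate 1 was the higher. The difference was 1.85 without undifferentiated replicate 2 and 2.66 without undifferentiated replicate 1.

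TFRC, the transferrin receptor, went the other way. It was listed at 2.76 and 4.04 TPM in differentiated cells, against 28.9 and 17.4 TPM in undifferentiated cells, with means of 3.40 ± 0.905 and 23.2 ± 8.13 TPM (SD, n = 2). The mean was 6.81-fold higher before differentiation, and the log2 difference was -2.43. As a share of protein-coding TPM, TFRC stood at 0.00226% and 0.003% after and at 0.0126% and 0.0112% before it, so the undifferentiated libraries lay closer together on this scale.

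The ratio of the ferritin transcripts to the TFRC transcript differed widely between the stages. FTH1 stood at 1330 and 1100 times TFRC in the differentiated libraries and at 3.67 and 4.99 times TFRC in the undifferentiated libraries. FTL stood at 1420 and 1230 times TFRC after and at 26.7 and 53.8 times TFRC before differentiation. The log2 ratio of FTH1 to TFRC differed by 8.14 between the stages, and by 7.92 to 8.37 with a library left out in turn.

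**Figure D2:**
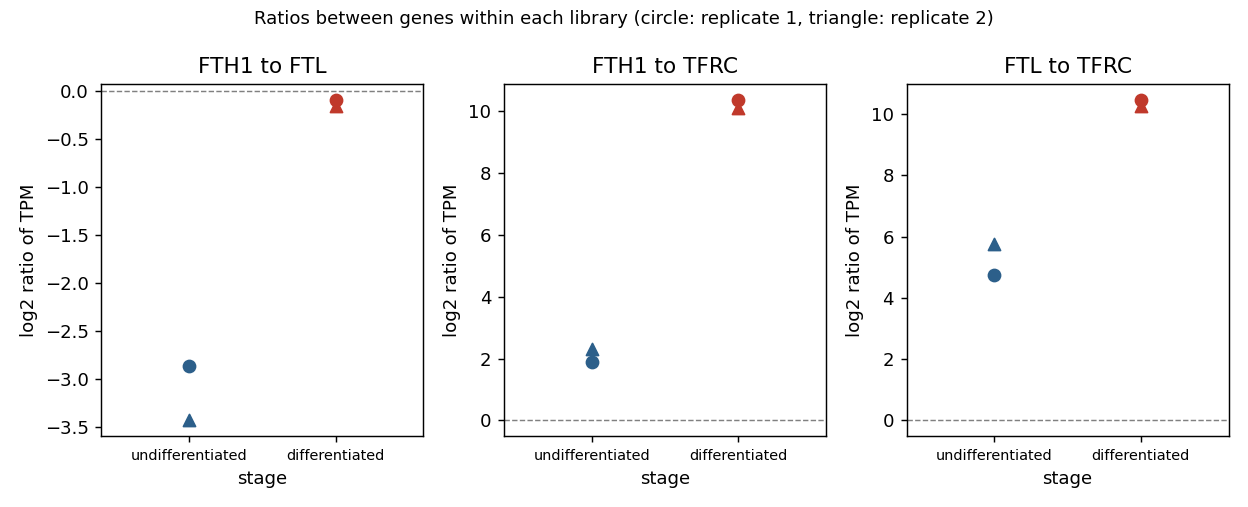
The 3 panels show the log2 ratio of TPM within each library for FTH1 to FTL, FTH1 to TFRC and FTL to TFRC, by stage, with a dashed line where both genes are equal. Circles are replicate 1 and triangles replicate 2. The FTH1 to FTL ratio lies just under the line after differentiation (-0.09 and -0.16) and far below it before (-2.86 and -3.43).

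SLC40A1, the exporter whose hairpin is shown above, was listed at 7.15 and 8.41 TPM in differentiated cells and at 0 in both undifferentiated libraries. The differentiated mean was 7.78 ± 0.891 TPM (SD, n = 2). No fold is given against a stage listed at 0. SLC11A1, the phagosomal metal transporter also known as NRAMP1, was listed at 4.72 and 6.23 TPM in differentiated cells, against 0 and 0.01 TPM in undifferentiated cells. Both transporters were low beside the ferritin chains.

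Of the 10 genes, CD163, SLC48A1, HMOX1 and BLVRB handle haem, and each was higher in both differentiated libraries than in both undifferentiated libraries. CD163, the haemoglobin scavenger receptor, was listed at 28.3 and 28.4 TPM in differentiated cells and at 0 in both undifferentiated libraries. Its differentiated libraries were the closest of the 10 genes, with a mean of 28.3 ± 0.0283 TPM (SD, n = 2). SLC48A1, the haem transporter also known as HRG1, was the lowest of the 10 genes in differentiated cells. It was listed at 2.12 and 2.66 TPM there and at 0.52 and 0.19 TPM before, with means of 2.39 ± 0.382 and 0.355 ± 0.233 TPM (SD, n = 2) and a log2 difference of 1.33.

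HMOX1, the inducible haem oxygenase, was listed at 94.5 TPM and 107 TPM in the differentiated libraries, with 0.08 and 0 TPM in the undifferentiated libraries. The mean after differentiation was 101 ± 9.0 TPM (SD, n = 2). Its log2 difference of 6.61 was the largest of the 10 genes on the log2(TPM + 1) scale. By rank among protein-coding genes HMOX1 was 139th and 136th in the differentiated libraries. HMOX2, the constitutive haem oxygenase, was listed at 5.27 and 6.89 TPM in differentiated cells, against 5.58 and 5.00 TPM in undifferentiated cells and was not called (log2 difference 0.16, limma adjusted p = 0.765, where a call needs a Benjamini-Hochberg adjusted p below 0.05). HMOX1 therefore stood at 17.9 and 15.6 times HMOX2 in differentiated cells and at 0.0143 times and 0 times HMOX2 in undifferentiated cells.

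BLVRB, which reduces biliverdin IXβ and flavins, was listed at 7.57 TPM and 8.38 TPM in the differentiated libraries, with 1.75 and 1.42 TPM in the undifferentiated libraries. The means were 7.98 ± 0.573 and 1.59 ± 0.233 TPM (SD, n = 2), a 5.03-fold ratio and a log2 difference of 1.80. BLVRA, the main reductase of haem-derived biliverdin, was listed at 0.48 and 0.68 TPM in differentiated cells, against 1.27 and 0.48 TPM in undifferentiated cells. It was below the filter. BLVRA was below BLVRB in every library.

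The order of levels was the same in both differentiated libraries except for a pair of neighbours. It ran from FTL, FTH1, HMOX1, NCOA4 and CD163 through BLVRB and SLC40A1 to SLC11A1, TFRC and SLC48A1. BLVRB and SLC40A1 changed places between the libraries, and the ranges of FTL and FTH1 overlapped. In undifferentiated cells the order was FTL, FTH1, TFRC, NCOA4, BLVRB and SLC48A1, with no overlap between neighbours, and the other 4 genes were at or below 0.08 TPM. All 10 genes were higher in differentiated replicate 2 than in replicate 1, as were 58.2% of all tested genes. Of the 10 genes, 6 were higher in undifferentiated replicate 1 than in replicate 2, and the median of all tested genes was 0.50 higher there on the log2 scale. FTL was the opposite (771 and 938 TPM).

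The direction of every one of the 10 differences was the same under each scaling and pseudocount tried, but the sizes moved. Rescaling over protein-coding genes alone gave 9.40 for HMOX1, 7.79 for CD163, 5.94 for SLC40A1, 5.39 for SLC11A1 and 2.86 for SLC48A1. That rescaling raises all values, so the pseudocount of 1 weighs less. With a pseudocount of 0.1 and no rescaling the same genes stood at 9.55, 8.15, 6.30, 5.72 and 2.55. FTH1, FTL and TFRC, which are not near 0 in either stage, ranged from 5.27 to 5.96, from 2.03 to 2.94 and from -2.71 to -2.14 over these settings.

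**Figure D3:**
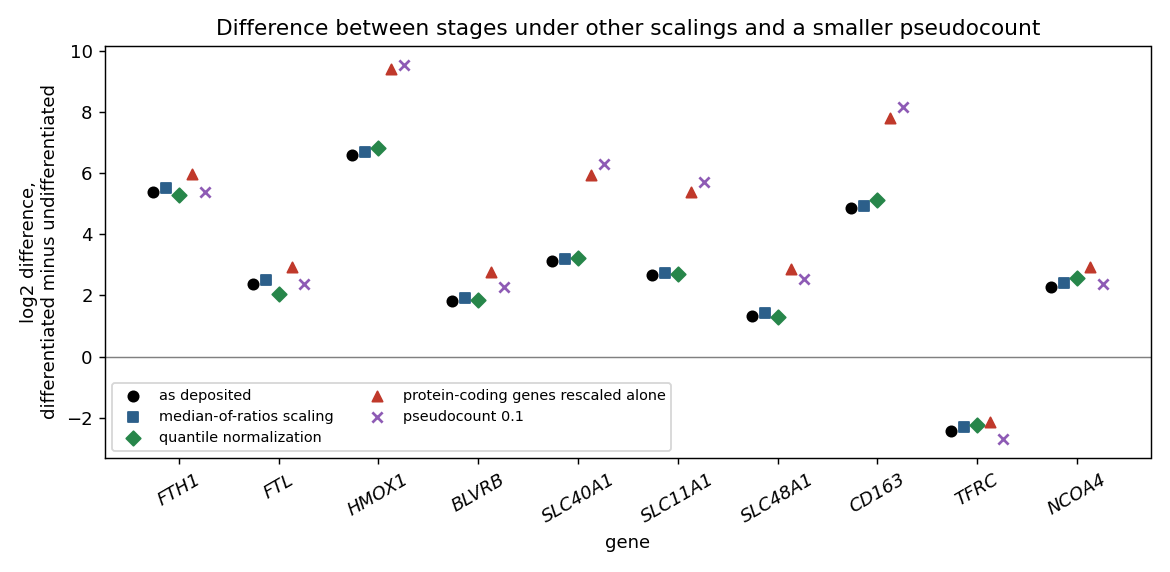
The vertical axis is the log2 difference (differentiated minus undifferentiated) of each of the 10 genes, as deposited, under 3 other scalings and with a pseudocount of 0.1. In all, 9 genes lie above 0 and TFRC below 0 under all 5, and the genes at or near 0 TPM before differentiation spread most between settings.

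The other genes of iron and haem handling were compared in 8 lists by role, 69 genes in all. Of these, 38 were tested, and 6 rose, 4 fell and 28 were not called (limma, Benjamini-Hochberg adjusted over all tested genes). These are 15.8% higher and 10.5% lower, against 18.6% and 22.8% of all tested genes. Of the calls over all genes 44.8% were higher, and 65.6% when protein-coding genes were rescaled alone. Their median log2 difference was 0.24, against -0.14 over all tested genes. The 31 genes below the filter include HAMP, which encodes hepcidin, the hormone that removes ferroportin from the membrane, at 0.15 and 0.16 TPM after and at 0 before differentiation. After rescaling over protein-coding genes alone 29 of 52 tested genes were called higher and 5 lower, beside 4102 and 2153 of all 11945. After quantile normalization 12 and 10 of 38 were called, beside 2578 and 3005 of all 10180. The rescaling over protein-coding genes alone also brought in genes that had not passed the filter as deposited. How these genes stood beside all tested genes thus turned on the scaling, and there also on the filter. With either differentiated library left out 3 were called higher and 0 lower (2 lower at an unadjusted limma p below 0.05 in each case), and without undifferentiated replicate 2, 7 higher and 9 lower. The 3 genes called higher in both were LRP1, SLC46A1 and EPAS1, which were also the only ones called without a filter on low values.

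Of the uptake genes 1 of 3 tested fell and 0 rose, also at an unadjusted limma p below 0.05. The 1 that fell is 33.3%, beside 22.8% of all tested genes. After median-of-ratios scaling 1 was called higher and 1 lower, and after quantile normalization 1 and 2. With protein-coding genes rescaled alone 5 were called higher and 1 lower of 8 tested. Most of these higher calls were genes that had not passed the filter as deposited. The direction of these counts thus turned on the scaling and the filter together. SLC39A14, a zinc transporter that also carries free iron, was listed at 2.55 TPM and 1.58 TPM in the differentiated libraries, with 14.2 and 8.85 TPM in the undifferentiated libraries, a log2 difference of -2.01 ± 0.41 (SE, limma adjusted p = 0.00144). Its adjusted p was 0.108 and 0.172 without differentiated replicate 1 or 2. Neither of the 2 tested genes of iron chaperones, storage and export partners was called by limma, and 0 had an unadjusted p below 0.05. With median-of-ratios scaling 1 of them was called higher, and with quantile normalization 2. With protein-coding genes rescaled alone 3 of 3 tested were called higher, among them HAMP, which was below the filter as deposited. PCBP2, which hands iron to ferritin, averaged 88.8 TPM after and 70.2 TPM before differentiation (limma adjusted p = 0.464, and 0.0335 after quantile normalization).

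Neither of the 2 tested iron regulatory genes was called by limma, and 1 had an unadjusted p below 0.05. Under both median-of-ratios scaling and quantile normalization 1 was called higher and 1 lower. With protein-coding genes rescaled alone 2 of 4 tested were called higher and 0 lower. These 4 include genes below the filter as deposited. IREB2 encodes an iron regulatory protein that binds iron-responsive elements. It was listed at 6.12 and 5.79 TPM in differentiated cells, against 17.1 and 8.70 TPM in undifferentiated cells. Its log2 difference was -0.93 ± 0.41 (SE, limma adjusted p = 0.0889, and 0.0175 after median-of-ratios scaling). With protein-coding genes rescaled alone it was -0.46 (limma adjusted p = 0.171). The limma adjusted p was 0.16 with the replicate block. Without undifferentiated replicate 1 the difference was -0.48. ACO1, which encodes the other such protein, was listed at 0.77 TPM and 0.90 TPM in the differentiated libraries, with 1.25 and 0.75 TPM in the undifferentiated libraries, below the filter.

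Of 9 tested genes of mitochondrial iron and iron-sulfur clusters, 2 fell, 0 rose and 7 were not called, and at an unadjusted limma p below 0.05 the counts were 4 and 0. The 2 of 9 that fell are 22.2%, beside 22.8% of all tested genes. These counts turned on the scaling. Median-of-ratios scaling and quantile normalization each gave 1 higher and 4 lower, and protein-coding genes rescaled alone gave 3 higher and 2 lower. GLRX5, a glutaredoxin of cluster assembly, had a log2 difference of -1.55 ± 0.40 (SE, limma adjusted p = 0.00769). Its call was lost without differentiated replicate 1 or 2 (adjusted p = 0.281 and 0.149). None of the 8 tested haem synthesis genes was called by limma, and 1 was lower at an unadjusted p below 0.05. After quantile normalization 2 were called lower, and with protein-coding genes rescaled alone 1 was called higher. UROS, the most abundant of them, averaged 5.78 TPM after and 7.20 TPM before differentiation (limma adjusted p = 0.72).

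Among 5 tested genes of haem transport and scavenging, 2 rose, 1 fell and 2 were not called. These are 40% higher and 20% lower, beside 18.6% and 22.8% of all tested genes. This list, like the others by role, was chosen with earlier results of these data known, so nothing is read from these shares. After median-of-ratios scaling 3 were called higher and 1 lower, and with protein-coding genes rescaled alone 5 and 2 of 8. These 8 include genes below the filter as deposited. LRP1, the receptor for haem-carrying haemopexin and many other ligands, was listed at 9.38 and 10.0 TPM in differentiated cells, against 0.37 and 0.17 TPM in undifferentiated cells. Its log2 difference was 3.08 ± 0.37 (SE, limma adjusted p = 2.94e-05). SLC46A1, a folate transporter that was also described as a haem carrier, was listed at 2.89 TPM and 2.30 TPM in the differentiated libraries, with 0.11 and 0.16 TPM in the undifferentiated libraries (log2 difference 1.66 ± 0.24, SE, limma adjusted p = 0.000134). Both were called with each library left out in turn. PGRMC1, a haem-binding membrane protein, fell by 1.31 on the log2 scale (limma adjusted p = 0.0241), a call that was lost without differentiated replicate 1 or 2 (adjusted p = 0.374 and 0.339). Like EPAS1 and NR1H3 below, LRP1 and SLC46A1 passed the filter through the differentiated libraries alone.

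Of 7 tested transcription factors known for these genes, 4 rose, 0 fell and 3 were not called, with the same 4 and 0 at an unadjusted limma p below 0.05. The 4 that rose are 57.1%, beside 18.6% of all tested genes. The list was chosen with earlier results of these data known, so nothing is read from this share. Under both median-of-ratios scaling and quantile normalization 5 were called higher. With protein-coding genes rescaled alone 9 of 9 were called higher, beside 4102 of all 11945. These 9 include genes that had not passed the filter as deposited. With the replicate block 2 of 7 were called higher, and without a filter on low values 1 of 9. EPAS1, which encodes the hypoxia factor HIF-2α, was listed at 14.3 and 16.3 TPM in differentiated cells, against 0.74 and 0.51 TPM in undifferentiated cells (log2 difference 3.33 ± 0.38, SE, limma adjusted p = 2.31e-05). HIF1A averaged 112 TPM after differentiation, 35.3 TPM before it, and differed by 1.68 ± 0.38 on the log2 scale (SE, limma adjusted p = 0.00303, 0.163 and 0.122 without differentiated replicate 1 or 2). BACH1, the haem-sensing repressor of HMOX1, and NR1H3, which encodes the sterol receptor LXRα, were named after their values were seen. BACH1 rose by 1.07 (limma adjusted p = 0.0389) and NR1H3 by 0.69 (limma adjusted p = 0.0428). The BACH1 call was lost without differentiated replicate 1 or 2 (adjusted p = 0.343 and 0.403), and the NR1H3 call without these and without undifferentiated replicate 1 (adjusted p = 0.0779, 0.119 and 0.0576). With the replicate number as a block the adjusted p was 0.0995 for BACH1 and 0.0695 for NR1H3. NFE2L2, which encodes the activator NRF2, averaged 16.3 TPM after and 9.35 TPM before differentiation and was not called (limma adjusted p = 0.136, and 0.0121 after median-of-ratios scaling). SPIC, which encodes a factor of red pulp macrophages, was listed at 0 in all 4 libraries.

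**Figure D4:**
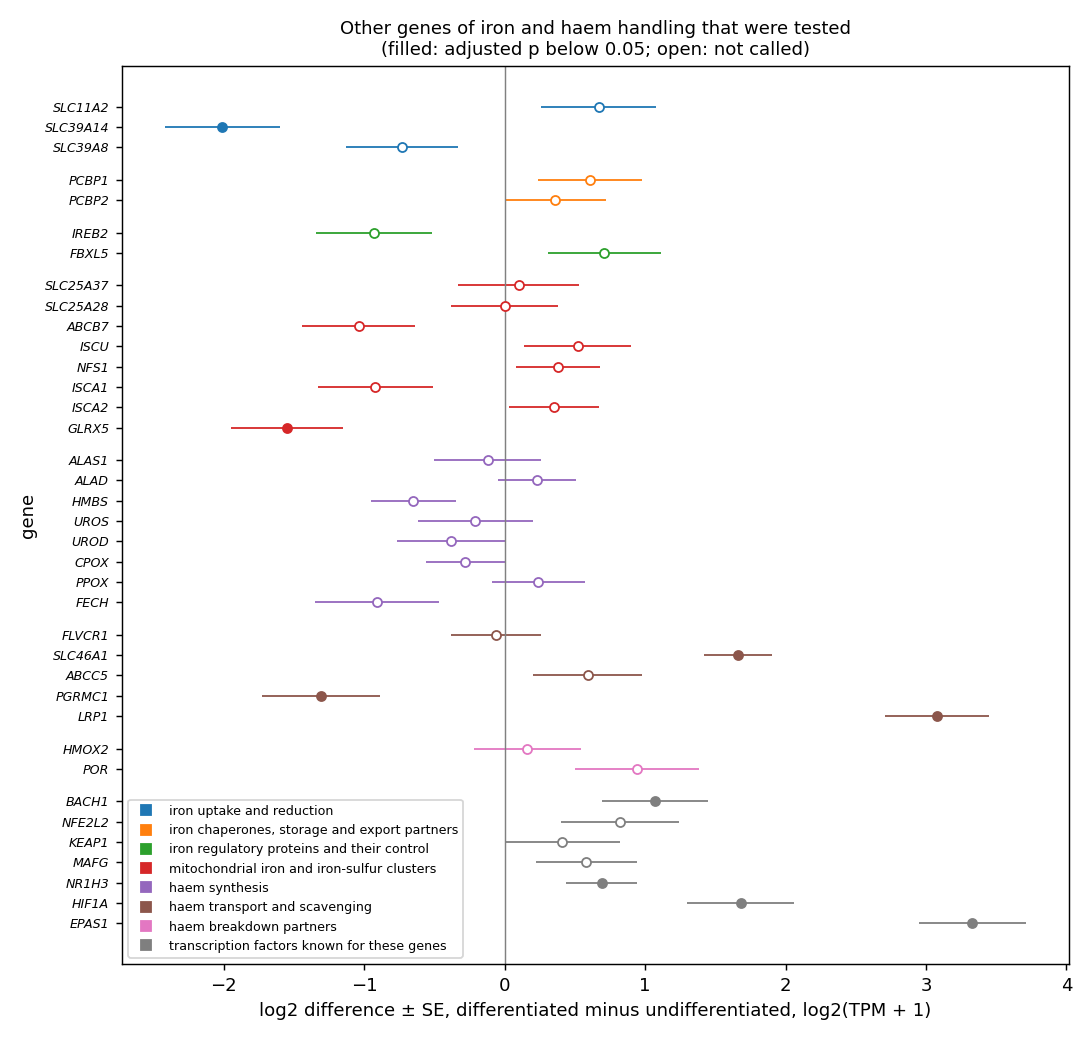
The horizontal axis is the log2 difference (differentiated minus undifferentiated) on the log2(TPM + 1) scale with its SE, for 37 of the 38 other iron and haem genes that were tested, coloured by role. Filled points were called and open points were not. The haem synthesis genes are all open, and LRP1 and EPAS1 lie farthest to the right.

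Promoters were compared by the letters of known binding motifs. RefSeq windows (GRCh38.p14) of 250 bases before to 50 bases after the start were compared for 8 of the 10 genes, 9 windows in all, without FTH1 and HMOX1. On both strands, TTGCNNAA (C/EBP) was found in 1 of the 9 windows and in 10.5% of all 35116 windows. TGACNNNGC (NRF2 or BACH1 with a small MAF protein) was found in 2 and in 13.3% of all. TGANTCA (AP-1) was found in 1 and in 7.71% of all. GAGGAAGT (PU.1) and CACGTG (TFE and MiT factors) were found in none of the 9 and in 2.59% and 7.26% of all. These letters are short, and a match is not a binding site. The CD163 window, chr12:7503778-7504027 on the minus strand before the start, is shown because it was the only one with the C/EBP letters. The capitals mark the C/EBP letters, read on the other strand, and then the TGACNNNGC letters.
CD163: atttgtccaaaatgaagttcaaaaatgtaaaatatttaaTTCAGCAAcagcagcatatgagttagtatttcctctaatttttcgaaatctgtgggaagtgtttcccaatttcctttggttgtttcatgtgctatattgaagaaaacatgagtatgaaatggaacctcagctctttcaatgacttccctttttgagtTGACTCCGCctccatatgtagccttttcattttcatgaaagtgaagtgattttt

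The genes most like 3 of the members were sought by the Euclidean distance of log2(TPM + 1) over the 4 libraries. With 4 libraries in 2 stages, many genes share such a profile, and a small distance describes only a like level in each library. Nearest to CD163 were FOLR2 (distance 0.0695), CLEC7A (0.166) and CYTIP (0.206), 3 genes of leukocytes. FOLR2, a folate receptor of macrophages, was listed at 28.5 TPM and 27.6 TPM in the differentiated libraries, with 0 and 0.04 TPM in the undifferentiated libraries. Nearest to TFRC were NDUFB3 (0.165), ZBTB8OS (0.278) and DUT (0.356). Nearest to FTL were the small RNAs SNORA73A (0.687), SNORD3A (0.854) and RNU4-1 (1.02).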

How the data were processed

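The authors deposited TPM values for 58302 genes in 4 libraries. Per the submitters' processing notes Trimmomatic, STAR and RSEM were used. Their versions, the annotation and the build were not given in the sources used here. Per the labels' protocols, the NuGEN Encore Complete kit gave stranded libraries of total RNA. Columns were matched to samples by stage and replicate number in the titles.

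Gene types came from GENCODE release 29 (58039 IDs found). A gene was compared where 2 or more libraries had at least 1 TPM, as log2(TPM + 1) with limma 3.58.1 in R 4.3.3 (mean-variance trend, two-sided, Benjamini-Hochberg adjusted over 10180 genes, threshold 0.05). The fit had 2 residual and 10.9 prior degrees of freedom and was tested on simulated data. The simulation had fewer changed genes than were called here and independent noise in each library. It does not show how the fit performs on these data. An exact permutation test of 2 against 2 cannot give a two-sided p below 0.333. Alternatives were other scalings (median-of-ratios, quantile, protein-coding genes rescaled to the full TPM sum), pseudocounts, filters, no trend, a replicate block and each library left out. Promoter windows came from RefSeq, and hairpins from GENCODE transcripts. The members and lists were chosen with earlier results of these data known. Genes were named by rule: all members, up to 2 called genes per direction and the most abundant of each role list, the 2 most abundant of each marker list (not all are given), the 3 most abundant ferritin pseudogenes and the nearest profiles. BLVRA, ACO1, NFE2L2, HAMP, SPIC and the markers PF4, GP1BA and ALB fall outside it and were named after their values were seen. A gene that the rule selects is not reported here.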

Additional observations from a re-analysis of the deposited data

How the results depend on the processing

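The fits with median-of-ratios scaling, quantile normalization or a library left out used the same 10180 genes. Rescaling protein-coding genes alone changed the gene types, the scale and the genes passing the filter together (11945 genes). Over all genes, 1890 called higher and 2326 lower became 687 and 573 without a filter on low values, 1016 and 1420 with at least 5 TPM in 2 libraries, and 4102 higher (65.6% of calls) with protein-coding genes rescaled alone. With a library left out, counts ran from 934 to 2714 higher and from 337 to 3818 lower. The median over all tested genes was -0.14 as deposited, -0.03 after median-of-ratios scaling and 0.37 over protein-coding genes rescaled alone. Of the other iron and haem genes, 6 called higher and 4 lower became 3 and 0 without the filter (6 lower at an unadjusted limma p below 0.05), 12 and 7 with median-of-ratios factors, 12 and 10 with quantile-normalized values, and 29 higher with protein-coding genes rescaled alone. With a library left out they ran from 3 to 9 higher and from 0 to 9 lower. With the replicate block, 1730 genes were called higher and 2036 lower, and 4 and 4 of the other iron and haem genes. Deviations of same-numbered libraries correlated with r = -0.024 across genes, so the numbers were not taken to pair them. The log2 ratio differences ran from 2.74 to 3.31 (FTH1 to FTL) and from 7.92 to 8.37 (FTH1 to TFRC) with a library left out. The cause of these shifts was not tested. TPM keeps no depth, so counting error is unknown.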
